A study of Mus musculus with 6 samples.

Results

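The genes described here, 10 of the 32285 counted in the series, belong to the protein folding machinery of the testis. They were chosen by name, as chaperones that germ cells are known for (Hspa2, Hspa1l, Hspa4l, Clgn, Calr3 and Dnajb8) and as the widely expressed chaperones of the same families (Hspa8, Hspa5, Canx and Calr), and every one of them was detected. Their unique molecular identifiers (UMIs, tags that each mark 1 captured RNA molecule) were followed across germ cell classes, somatic cells and diets. Hspa4, the widely expressed relative of Hspa4l, was added for comparison.

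Heat shock proteins of the HSP70 family bind stretches of unfolded protein and release them in cycles that J-domain proteins start and nucleotide exchange factors end. In the endoplasmic reticulum, calnexin and calreticulin hold new glycoproteins by their sugars while these fold, next to the HSP70 protein BiP. Germ cells are known for their own versions of these proteins: HSPA2 serves the synaptonemal complex and the meiotic divisions, calmegin and calsperin serve the sperm surface proteins that fertilization needs, and mice without Hspa2, Clgn or Calr3 are known to have infertile males.

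The libraries were made from whole testes of C57BL/6N mice (C57BL/6 wildtype in the labels) aged 8 weeks. By the study's methods the mice were fed for 2 weeks with a purified diet of high fat content (HFD, 3 libraries) or of low fat content (LFD, 3 libraries). The 6 libraries held 5753 to 11095 cell barcodes and 39196921 to 95845514 UMIs each, and shared 12 to 28 barcodes in pairs. Groups follow the sample titles, but by the names of the deposited files each of the 6 libraries would have the other diet. Libraries are therefore called "labelled HFD" and "labelled LFD", and every diet difference below changes its sign if the file names are right. HFD replicate 1 and LFD replicate 1 stood apart from the others in haemoglobin transcripts, at no more than 0.0209 CPM (UMIs of a gene per 1000000 UMIs) against 30.5 to 99.7 CPM. The study's methods give 3 mice per diet for this work, while nothing in the labels says that libraries came from separate animals. P-values measure the spread between these libraries only.

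Cell barcodes were put into classes by the UMIs of marker genes, none of which is a gene described here. Of 48939 barcodes, 8720 (17.8%) with at least 5000 UMIs entered a germ cell class, and these held 62.5% of all UMIs. The classes, in developmental order, are spermatogonia (847 barcodes), early meiotic prophase spermatocytes (681), pachytene spermatocytes (974), late spermatocytes at the meiotic divisions (1208), early round spermatids (852), later round spermatids (2005), a class gated on markers of the start of elongation (873) and elongating spermatids (838). The markers were highest in their own class for 11 of 13, 9 of 9, 4 of 6, 5 of 6, 6 of 7, 5 of 7, 2 of 4 and 3 of 6 genes, in the same order. Since only Cst13 and Fam71b peaked in the class gated on the start of elongation, it is called the Fam71b class below. Sertoli cells (559 barcodes) and macrophages (252) had at least 20 barcodes in every library and all of their 8 and 9 markers highest in their own class. A further 442 late condensing spermatids, with little Tnp2 beside the protamines, reached 20 barcodes in only 3 libraries and are given as values with no test.

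Levels are CPM of the pooled UMIs of a class in a library. A molecule is tagged once at its 3′ end, so no division by gene length was made. Differences between classes are log2 changes from edgeR's quasi-likelihood test with trimmed-mean (TMM) normalization, with the library as a block, and a gene passed the test at an adjusted p under 0.05 over all 15921 genes tested. Scaling matters between such different cells: with the median-ratio size factors of DESeq2, in edgeR or in DESeq2 itself, the median gene moved by between -0.68 and 0.49 on the log2 scale in the steps between neighbouring germ cell classes. Ratios of a testis gene to its counterpart, which no scaling of libraries can move, are therefore given as well.

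Promoter sequences are given first, as a description. RefSeq (build GRCm38.p6) gave a promoter for 8 of the 10 genes, all but Hspa8 and Clgn. The 250 bases before the start were searched on both strands for the ER stress element, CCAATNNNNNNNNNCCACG, the site that the stress sensor ATF6 is known to bind together with the factor NF-Y. Of 32851 promoters, 37 (0.113%) held a match, and Hspa5, Calr and Canx were among them, each with 1 match. The sequences of these 3 genes are printed, with the match in capitals. Their levels were highest in early meiotic prophase (below), and a link between the element and these levels was not tested. On Calr the match lies on the opposite strand.
Hspa5, chr2:34771840-34772089, plus strand: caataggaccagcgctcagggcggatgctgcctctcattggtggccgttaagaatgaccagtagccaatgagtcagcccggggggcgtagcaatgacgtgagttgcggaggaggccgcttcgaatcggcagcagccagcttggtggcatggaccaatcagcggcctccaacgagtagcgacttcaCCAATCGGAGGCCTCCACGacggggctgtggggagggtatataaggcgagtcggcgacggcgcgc
Calr, chr8:84846932-84847181, minus strand: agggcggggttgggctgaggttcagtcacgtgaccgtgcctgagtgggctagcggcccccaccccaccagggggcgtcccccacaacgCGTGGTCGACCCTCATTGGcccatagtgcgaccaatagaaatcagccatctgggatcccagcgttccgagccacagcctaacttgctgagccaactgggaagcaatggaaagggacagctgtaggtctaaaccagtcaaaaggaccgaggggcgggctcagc
Canx, chr11:50325674-50325923, minus strand: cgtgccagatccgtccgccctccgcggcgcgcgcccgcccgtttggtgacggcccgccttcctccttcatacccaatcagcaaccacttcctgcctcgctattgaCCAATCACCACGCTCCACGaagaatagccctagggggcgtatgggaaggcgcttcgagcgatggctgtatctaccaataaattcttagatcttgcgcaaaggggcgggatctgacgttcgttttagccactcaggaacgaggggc
The match begins 65 bases before the start in Hspa5, 145 in Canx and 162 in Calr, counted to the base farthest from the start. For Hspa5, the gene model of GENCODE begins at position 34771970, inside the printed stretch.

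Of the other 81 chaperone and cochaperone genes listed for this work, 68 had a promoter and 3 of these held the element (Hsp90b1, Dnajc3 and Pdia6). Of the 12 genes of a list for the unfolded protein response, 10 had a promoter and Hspa5 and Creld2 held it. The heat shock element was in 0.466% of all promoters and in none of the 8 found here, and the full cAMP response element, TGACGTCA, in 1.55% and none. Its core, TGACG, which the full element and 17.8% of all promoters contain, was in 6 of the 8. These were Calr3, Canx, Hspa1l, Hspa2, Hspa4l and Hspa5. A gene was counted if any of its promoters matched, while the shares of all are per promoter, so the counts are not strictly alike. As for Hspa5, searched stretches of Hspa2, Hspa4l, Calr3 and Calr lie in part or in whole inside the gene models of GENCODE. The promoters of Hspa1l and Dnajb8, genes whose level climbs through the spermatid classes, are printed as well. Hspa1l has its core in capitals, and Dnajb8 holds no match to the element, the core or the heat shock element. The core also lies in the Hspa5 and Canx stretches printed above, left there in lower case. A match is a description of letters and was not tested as a binding site or as a cause of any level.
Hspa1l, chr17:34972453-34972702, plus strand: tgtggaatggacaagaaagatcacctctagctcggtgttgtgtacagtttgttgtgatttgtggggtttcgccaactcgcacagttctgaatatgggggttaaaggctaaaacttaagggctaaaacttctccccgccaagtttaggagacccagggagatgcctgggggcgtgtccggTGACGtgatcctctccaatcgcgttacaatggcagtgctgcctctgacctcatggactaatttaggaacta
Dnajb8, chr6:88222018-88222267, plus strand: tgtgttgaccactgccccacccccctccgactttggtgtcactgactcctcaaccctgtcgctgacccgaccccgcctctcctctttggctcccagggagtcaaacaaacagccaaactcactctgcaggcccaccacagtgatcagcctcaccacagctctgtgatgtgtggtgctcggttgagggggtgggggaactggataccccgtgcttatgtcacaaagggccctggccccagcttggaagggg

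The cytosolic HSP70 genes handed over in sequence along the germ line. Hspa8 made up 81.3% ± 6.72 (SD, n = 6) of the summed UMIs of Hspa8, Hspa2 and Hspa1l in spermatogonia. Hspa2 made up 63.0% ± 4.6 in early meiotic prophase, 90.5% ± 1.5 in pachytene cells and 96.8% ± 0.435 in early round spermatids. Hspa1l made up 50.3% ± 8.86 in the Fam71b class and 75.9% ± 3.47 in elongating spermatids. The ranges of the 6 libraries for Hspa8 (72.5 to 89.1% in spermatogonia, 28.3 to 42.2% in early meiotic prophase, 6.73 to 10.1% in pachytene cells) did not overlap between these neighbouring classes.

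Hspa8 (ENSMUSG00000015656, chr9:40800984-40810087, plus strand) encodes HSC70, the constitutive HSP70 protein of most cells. Its CPM in spermatogonia was lowest at 952, had a median of 1250 and was highest at 1440. In early meiotic prophase the values were 535, 668 and 818, and in pachytene cells 153, 186 and 214. The libraries of each class lay below all of the class before. Hspa8 fell by 0.86 on the log2 scale at the first of these steps (SE 0.13, edgeR adjusted p = 1.42e-08) and by 1.46 at the second (SE 0.13, adjusted p = 3.73e-17). The largest fall came at the meiotic divisions, to 23.6, 31.9 and 46.7 CPM, by 2.37 on the log2 scale (SE 0.14, adjusted p = 8.85e-28). Elongating spermatids held 2.8 to 13.4 CPM, 0.147 UMIs per barcode. Macrophages, at 1040 ± 255 CPM, did not differ from spermatogonia beyond their spread (log2 change 0.16, SE 0.14, adjusted p = 0.319), and Sertoli cells held 539 ± 162 CPM. Mouse Hspa8 has processed pseudogenes, and how reads shared with such copies were counted is not given in the sources used here.

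Hspa2 (ENSMUSG00000059970, chr12:76404176-76406938, plus strand) encodes the HSP70 protein of spermatocytes. Its CPM was 153, 218 and 352 (lowest, median and highest library) in spermatogonia. It was 1080, 1160 and 1460 in early meiotic prophase, and 1710, 1870 and 2110 in pachytene cells, the class with the most UMIs of Hspa2 per barcode (73.9 ± 24.8). Again no library of one class overlapped with the next. The rise was 2.35 on the log2 scale at the first step (SE 0.13, edgeR adjusted p = 9.39e-28) and 1.07 at the second (SE 0.12, adjusted p = 2.78e-12), in 6 of 6 libraries each time. Its changes at the meiotic divisions (-0.27, adjusted p = 0.0432) and in early round spermatids (-0.28, adjusted p = 0.0442) were small, and both calls were lost in some fits with a library left out. It stood at 757 CPM (median) in later round spermatids and fell to 177 CPM in the Fam71b class, by 1.48 on the log2 scale (SE 0.13, adjusted p = 1.89e-18). Its CPM in elongating spermatids (72.1 to 125) was lower than in the Fam71b class in each library, a change of -0.48 (adjusted p = 0.00143) that passed the test with TMM normalization but was 0.02 with median-ratio size factors.

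Hspa1l (ENSMUSG00000007033, chr17:34972703-34979285, plus strand) encodes an HSP70 protein of spermatids. It stayed at 9.53 to 54.3 CPM in every library of the 5 classes up to early round spermatids, with a fall from early meiotic prophase to pachytene cells (log2 change -1.22, SE 0.19, edgeR adjusted p = 1.75e-08). Later round spermatids held 49.0, 55.2 and 65.9 CPM, the Fam71b class 172, 192 and 207, and elongating spermatids 304, 317 and 371. All libraries of each class lay above those of the class before. The steps were 2.18 (SE 0.15, edgeR adjusted p = 1.28e-22), 2.4 (SE 0.14, adjusted p = 9.36e-28) and 1.23 (SE 0.14, adjusted p = 8.15e-13) on the log2 scale. The gene overlaps Gm10501 on the other strand, and whether the counting used the strand is not given in the sources used here. The markers of elongating spermatids together held 6860, 8810 and 3450 CPM in spermatogonia, early meiotic prophase and pachytene cells. Whether RNA from spermatids makes up part of the Hspa1l values there was not tested.

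The ratios told the same sequence without any scaling. There were 0.191 UMIs of Hspa2 for each of Hspa8 in spermatogonia (0.107 to 0.342 over libraries), 10.4 in pachytene cells and 54.5 in early round spermatids. The log2 ratio rose by 3.25 ± 0.49 (SD, n = 6), 2.52 ± 0.14 and 2.11 ± 0.24 over the first 3 steps, in 6 of 6 libraries at each. For Hspa1l, there were 0.0757 UMIs for each of Hspa8 in pachytene cells, 3.38 in later round spermatids and 46.4 in elongating spermatids. Of all 35 steps of the 5 pairs, 26 reached the smallest p that an exact sign-flip permutation test over 6 libraries can give, 0.0312, with a Benjamini-Hochberg adjusted p of 0.0421. The last step of Hspa1l to Hspa8, from the Fam71b class to elongating spermatids, did not (0.59 ± 0.86, higher in 4 of 6 libraries, exact p = 0.188). From later round spermatids on, the denominators are 0.147 to 0.653 UMIs per barcode.

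**Figure D1:**
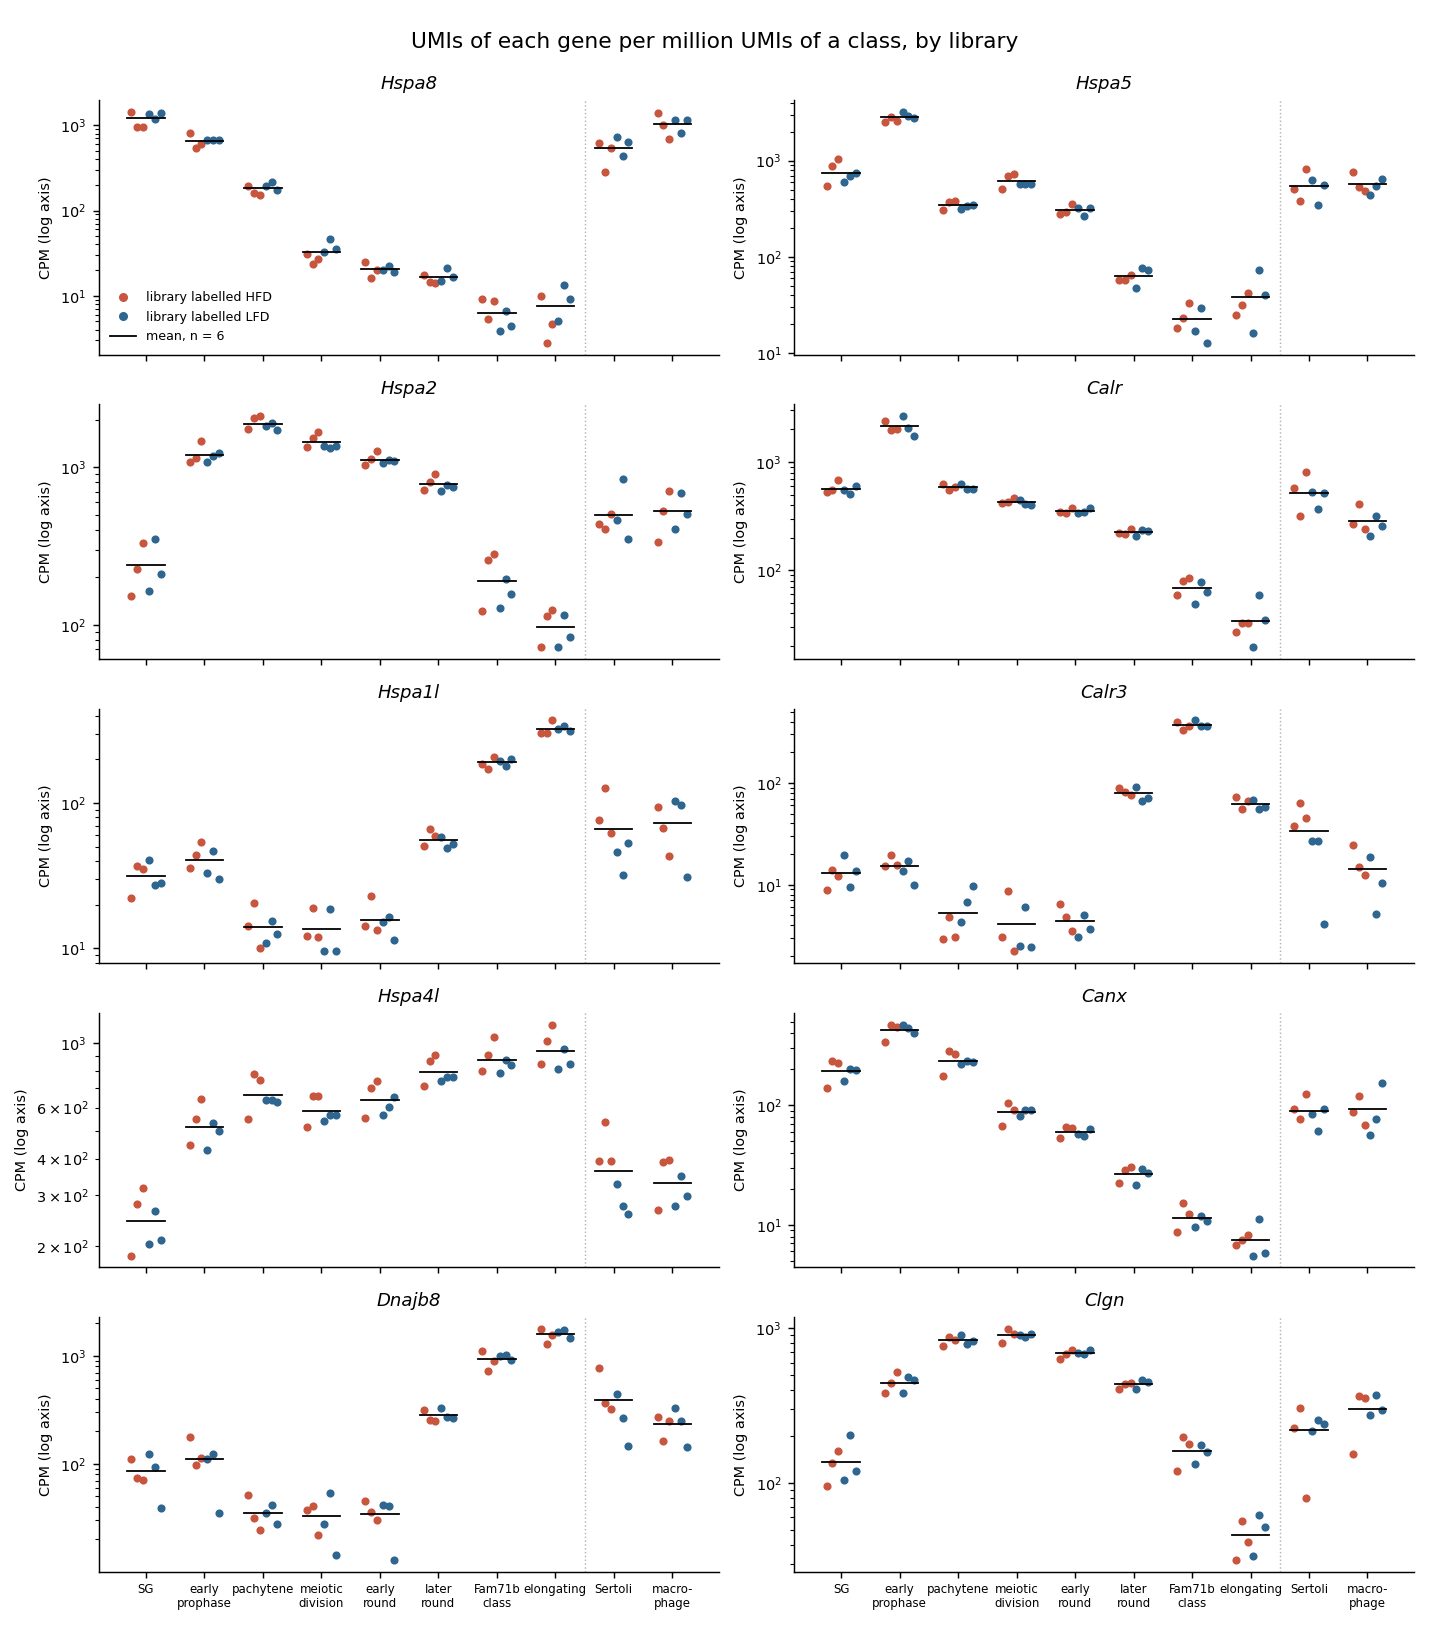
Level of each gene (CPM, log axis) in the 8 germ cell classes in developmental order and, right of the dotted line, in Sertoli cells and macrophages. Points are libraries, coloured by the labelled diet, and bars are means of 6 libraries; SG stands for spermatogonia. Hspa8 goes down along the axis, Hspa1l and Dnajb8 are lowest from pachytene to early round spermatids and go up from there, Hspa2 and Clgn peak at pachytene and the meiotic divisions, and Hspa5, Calr and Canx peak in early meiotic prophase.

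**Figure D2:**
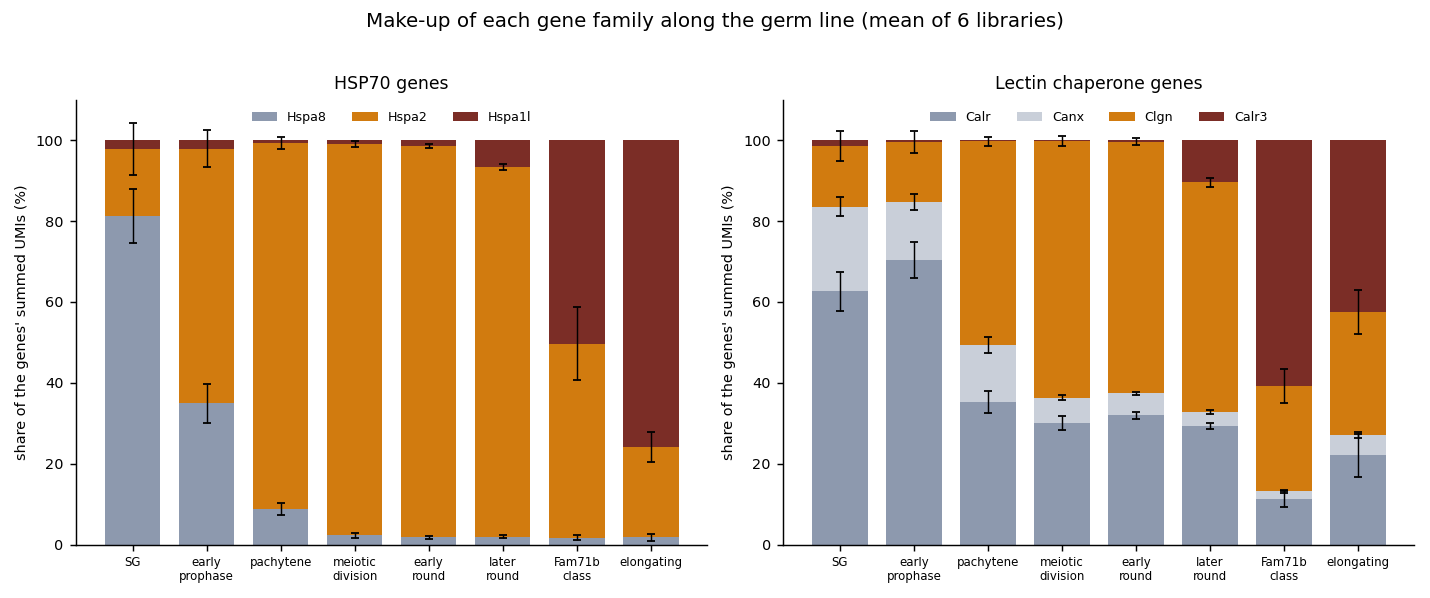
Share of each gene (%) in the summed UMIs of 3 HSP70 genes (left) and of 4 lectin chaperone genes (right) in each germ cell class. Stacked bars are means of 6 libraries, and each error bar, drawn at the top of a segment, is the SD of that segment's own share. Hspa8 gives way to Hspa2 and then to Hspa1l. Calr gives way to Clgn and then to Calr3, whose mean share is lower in elongating spermatids than in the Fam71b class.

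Hspa4l (ENSMUSG00000025757, chr3:40744495-40796103, plus strand) encodes an HSP110-type protein, a nucleotide exchange factor for HSP70. Its class means in germ cells ran from 243 ± 51.9 CPM in spermatogonia to 940 ± 133 CPM in elongating spermatids. It rose by 1.1 on the log2 scale into early meiotic prophase (SE 0.11, edgeR adjusted p = 4.69e-14). It then passed the test upwards at 4 more steps, from prophase to pachytene cells and at each step from early round to elongating spermatids, with changes of 0.55 to 0.75. The step to pachytene cells was lost with median-ratio size factors. Mean CPM of Hspa4l from early round to elongating spermatids was 635, 795, 877 and 940, so these steps were smaller in CPM than in the fit. Plain CPM moved the median gene by -0.32, -0.57 and -0.45 against TMM at them. Later round spermatids held 31.7 UMIs of Hspa4l per barcode and elongating spermatids 18.5. Hspa4, its counterpart, was at 383 CPM in spermatogonia and 66.2 CPM in elongating spermatids. The ratio of Hspa4l to Hspa4 was 0.626 in spermatogonia, 2.05 in pachytene cells and 14.2 (12.1 to 16.6) in elongating spermatids.

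Dnajb8 (ENSMUSG00000048206, chr6:88222268-88254415, plus strand) encodes a J-domain protein of the testis that is known to suppress protein aggregation. It held 38.9 to 123 CPM in spermatogonia and 34.9 to 179 CPM in early meiotic prophase, and fell from there to pachytene cells (log2 change -1.34, SE 0.18, edgeR adjusted p = 6.81e-10). In pachytene cells, at the meiotic divisions and in early round spermatids it lay between 12.9 and 53.5 CPM. The markers of elongating spermatids together held 6860, 8810 and 3450 CPM in spermatogonia, early meiotic prophase and pachytene cells. Whether RNA from spermatids makes up part of the Dnajb8 values there was not tested. Dnajb8 then held 248, 270 and 327 CPM in later round spermatids, 728, 960 and 1100 in the Fam71b class and 1300, 1610 and 1780 in elongating spermatids. No library of one of these classes overlapped with the next. The changes were 3.43 (SE 0.18, edgeR adjusted p = 5.77e-31), 2.35 (SE 0.16, adjusted p = 2.66e-23) and 1.19 (SE 0.16, adjusted p = 4.8e-10) on the log2 scale. The 3 libraries with enough late condensing spermatids held 2530, 3040 and 3250 CPM, above every library's elongating spermatids. There the UMIs of Dnajb8 per barcode were 38.4, against 31.1 in elongating spermatids, while the median UMIs per barcode were 12121.5 against 17345.5. When elongating and late condensing spermatids were instead sorted into 4 bins by the ratio of Tnp2 to protamine UMIs, a division made after the values were seen, Dnajb8 went from 1510 ± 150 CPM (6 libraries) in the bin with most Tnp2 to 3670 ± 473 CPM (3 libraries) in the bin with least. Hspa4l in the same bins stayed between 928 and 999 CPM. Dnajb8 overlaps 1700031F10Rik on the other strand.

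The lectin chaperones changed places in a similar sequence. Calr made up 62.6% ± 4.87 of the summed UMIs of Calr, Canx, Clgn and Calr3 in spermatogonia and 70.4% ± 4.38 in early meiotic prophase. Clgn made up 50.3% ± 1.06 in pachytene cells and 63.5% ± 1.22 at the meiotic divisions, and Calr3 60.7% ± 6.25 in the Fam71b class. In elongating spermatids Calr3 made up 42.5% ± 9.54, beside 30.4% ± 5.48 for Clgn and 22.1% ± 5.33 for Calr. In the 3 libraries with enough late condensing spermatids, Clgn (41.7% ± 2.41) was again above Calr3 (27.6% ± 3.2). Both were low there, at 0.662 UMIs of Clgn and 0.428 of Calr3 per barcode.

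Clgn (ENSMUSG00000002190, chr8:83389867-83428552, plus strand) encodes calmegin, the calnexin of germ cells. Its CPM was 95.6, 126 and 203 in spermatogonia, 381, 453 and 519 in early meiotic prophase, and 767, 835 and 901 in pachytene cells. All libraries of a class lay above those of the class before. It rose by 1.72 (SE 0.13, edgeR adjusted p = 2.55e-20) and 1.31 (SE 0.12, adjusted p = 5.16e-16) on the log2 scale at these steps. Its highest mean, 903 CPM at the meiotic divisions, did not differ from that of pachytene cells (log2 change 0.23, adjusted p = 0.0811). It then fell to 435 CPM in later round and 46.3 ± 12.4 CPM in elongating spermatids.

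Canx (ENSMUSG00000020368, chr11:50293961-50325673, minus strand) encodes calnexin itself. It was highest in early meiotic prophase, at 337, 449 and 475 CPM (lowest, median, highest), against 140, 198 and 235 in spermatogonia and 176, 233 and 287 in pachytene cells. The prophase libraries lay above all others. The log2 changes were 1.19 (SE 0.11, edgeR adjusted p = 3.82e-17) and -0.49 (SE 0.1, adjusted p = 1.51e-05). Canx was 2.48-fold lower at the meiotic divisions than in pachytene cells (adjusted p = 6.52e-21). Per UMI of Canx there were 0.697 UMIs of Clgn in spermatogonia (0.573 to 1.02), 3.57 in pachytene cells and 16.4 (14.6 to 18.8) in later round spermatids. The step of this ratio into early meiotic prophase (0.57 ± 0.31 in log2, adjusted p = 0.0421 by the exact sign-flip test) turned negative when possible doublets were left out, whereas the next, 1.79 ± 0.31, did not turn under any alternative tried.

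Calr (ENSMUSG00000003814, chr8:84841850-84846934, minus strand) encodes calreticulin, the soluble lectin chaperone of the endoplasmic reticulum. It stood at 504 to 680 CPM in spermatogonia, at 1750, 2050 and 2660 CPM in early meiotic prophase and at 548 to 628 CPM in pachytene cells. The changes were 1.92 (SE 0.12, edgeR adjusted p = 3.29e-24) and -1.48 (SE 0.12, adjusted p = 5.24e-19) on the log2 scale. Taken from spermatogonia straight to pachytene cells, the estimates for Calr (0.44) and Canx (0.7) were positive with TMM normalization but -0.43 and -0.16 with median-ratio size factors, so no direction is given for that span.

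Calr3 (ENSMUSG00000019732, chr8:72424176-72443870, minus strand) encodes calsperin. It stayed at 19.5 CPM or less in every library up to early round spermatids. It then appeared at 66.6, 78.2 and 90.8 CPM in later round spermatids and at 331, 364 and 412 CPM in the Fam71b class, with no overlap between the classes. The steps were 4.48 (SE 0.19, edgeR adjusted p = 4.42e-37) and 2.85 (SE 0.14, adjusted p = 4.57e-32) on the log2 scale, the first being the largest estimate of the 10 genes at any of the 7 steps between neighbouring germ cell classes. It fell to 55.0 to 73.2 CPM in elongating spermatids, by 2.06 on the log2 scale (SE 0.15, adjusted p = 1.79e-21), unlike Dnajb8 and Hspa1l, which went on rising. UMIs of Calr outnumbered those of Calr3 by 81.2-fold in early round spermatids (53.3 to 107). In the Fam71b class there were 5.44 UMIs of Calr3 for each of Calr (4.11 to 8.36).

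**Figure D3:**
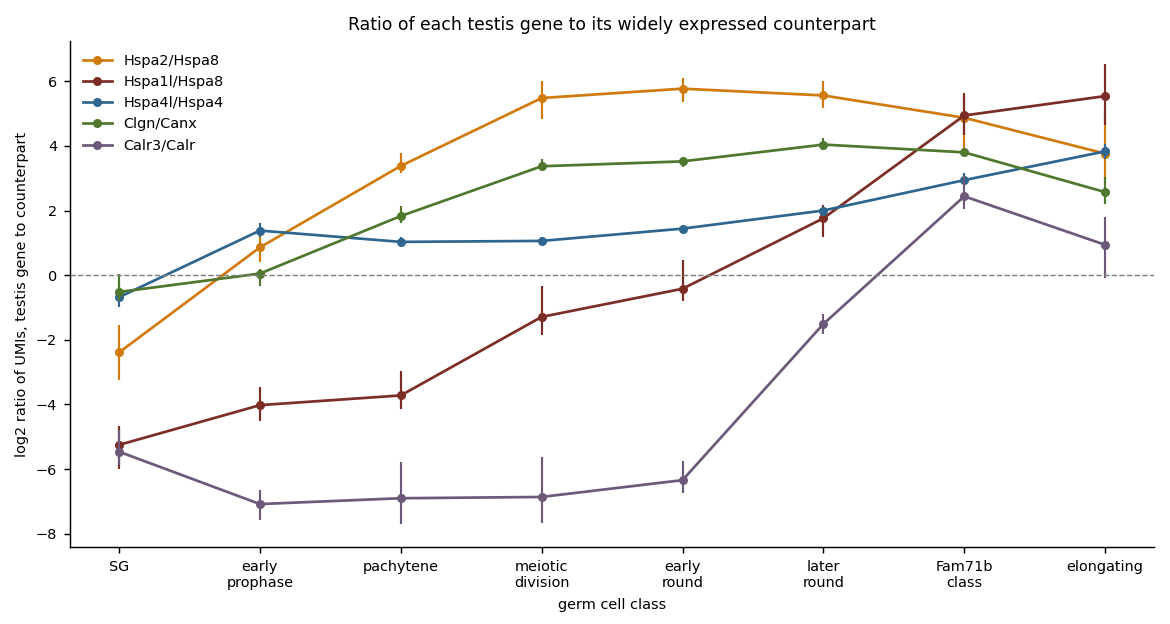
Log2 ratio of the UMIs of each testis gene to those of its widely expressed counterpart along the 8 germ cell classes. Points are means of 6 libraries with 0.5 added to each count, and vertical lines run from the lowest to the highest library; the dashed line marks equal UMIs. All 5 ratios end above 0 on average, Hspa2, Hspa4l and Clgn crossing it by early meiotic prophase, Hspa1l in later round spermatids and Calr3 in the Fam71b class.

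Hspa5 (ENSMUSG00000026864, chr2:34771970-34777547, plus strand) encodes BiP, the HSP70 protein of the endoplasmic reticulum and the classical target of the unfolded protein response. It had the highest level of the 10 genes in any class with a test. Its CPM was 544, 712 and 1040 in spermatogonia, 2520, 2830 and 3220 in early meiotic prophase and 308, 339 and 385 in pachytene cells. No library of early meiotic prophase came within reach of the neighbouring classes. The log2 changes were 1.93 (SE 0.15, edgeR adjusted p = 3.34e-20) and -2.64 (SE 0.15, adjusted p = 1.01e-27). Without possible doublets the mean in early meiotic prophase was 3510 CPM against 2820, and the class was again the highest. Hspa5 rose once more at the meiotic divisions, to 514, 574 and 734 CPM, by 0.94 (SE 0.14, adjusted p = 1.16e-08), and fell at each of the next 3 steps, to 22.5 CPM in the Fam71b class. Over the 10 classes with a test, the log2 levels of Hspa5 correlated with those of Calr at Pearson's r = 0.92 and of Canx at 0.93, and those of Calr and Canx at 0.96. These are descriptions over 10 points that share libraries.

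The summed level of the 10 genes was therefore highest in early meiotic prophase, at 8380 ± 415 CPM, against 3470 ± 214 in spermatogonia and 2750 ± 147 in later round spermatids. Hspa5 and Calr together held most of that sum.

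Counted over the 10 genes, the step into early meiotic prophase raised 8 (Hspa5, Hspa4l, Dnajb8, Clgn, Calr, Canx, Hspa2 and Hspa1l) and lowered Hspa8, where 23.2% of all genes tested rose and 30.6% fell. Of these, the calls of Hspa1l and Dnajb8 were lost under 7 and 6 of the alternatives, DESeq2 among them for both. The part of RNA from spermatids in the values of both genes was not tested. The step to pachytene cells raised 3 and lowered 7, against 31.8% and 32.3% of all genes. At the meiotic divisions 1 rose and 4 fell (34.8% and 36.5% of all genes), and at the step to early round spermatids 0 rose and 5 fell (27.9% and 32.3%), or 3 without HFD replicate 1, HFD replicate 2 or LFD replicate 3, when Clgn and Hspa2 no longer passed. From early to later round spermatids 4 rose (Hspa4l, Dnajb8, Calr3 and Hspa1l) and 4 fell (30.4% and 23.7%). The same 4 rose at the step to the Fam71b class, where the other 6 fell (27.5% and 32.6%). At the last step 5 rose and 4 fell (18.7% and 26.8%), and these 5 included Hspa5 and Hspa8 at under 80 CPM each. Medians over the 10 genes were 1.14, -1.28, -0.06, -0.23, -0.09, -0.66 and 0.27 on the log2 scale at these 7 steps, beside -0.03, -0.1, 0.0, -0.12, 0.03, -0.1 and -0.04 for all genes.

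In somatic cells the germ cell genes were set beside the shallow barcodes of no class. Barcodes under 5000 UMIs that entered no class held 882 ± 189 CPM of Hspa2 and 481 ± 192 CPM of Dnajb8. Sertoli cells held 498 ± 172 and 388 ± 216 CPM of them and macrophages 528 ± 148 and 235 ± 69.7 CPM. Barcodes of at least 1000 UMIs were thinned to 1000 UMIs, and shallower ones were left out of these shares. Hspa2 was then expected in 80.8% of pachytene cells, 44.4% of Sertoli cells, 41.6% of macrophages and 57.1% of the unclassed barcodes. Dnajb8 was expected in 78.5% of elongating spermatids, 33.8% of Sertoli cells and 35.4% of the unclassed barcodes. The median depth was 2028 UMIs in Sertoli cells, 37476.5 in pachytene cells and 17345.5 in elongating spermatids. The shares in Sertoli cells and macrophages thus lay below those of the unclassed barcodes, which may hold shallow germ cells, and are not read as expression in these cells. Free RNA was not measured, and its part in these values was not tested. Against spermatogonia, 6 of the 10 genes were higher and 2 lower in Sertoli cells (40.8% and 31.7% of all genes), and all 6 are germ cell genes at or below the level of the unclassed barcodes. Hspa8 is the reverse case: macrophages held 1040 CPM and the unclassed barcodes 69.6 ± 20.2.

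The order of the levels is less certain than the peaks. With the 10 classes of each gene put in order of mean CPM, 50 of the 90 pairs of neighbours differed in that direction by the edgeR test. Those that did not include pachytene cells and the meiotic divisions for Clgn, the meiotic divisions, pachytene cells and early round spermatids for Hspa4l, spermatogonia and macrophages for Hspa8, and pachytene cells and early round spermatids for Hspa5. Several pairs passed the test in the opposite direction to their CPM. For Hspa2, early meiotic prophase stood above early round spermatids in CPM but not in the fit (log2 change -0.52). The same held for its spermatogonia above the Fam71b class (-1.2). Others include early meiotic prophase above later round spermatids for Clgn (-0.9) and later round above elongating spermatids for Calr3 (-0.79).

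The wider chaperone list moved in both directions. Of its 81 genes, 78 were tested, and 38 were higher and 21 lower in pachytene cells than in spermatogonia, with a median of 0.25 beside -0.29 for all genes. Over all genes, 33.9% were higher and 42.1% lower. These counts are with TMM normalization and depend on the scaling. With median-ratio size factors the median gene moved by -0.87 over this span and by 0.55 or 0.56 from pachytene cells to elongating spermatids. Uggt2, a glucosyltransferase of glycoprotein quality control, rose from 7.35 to 62.1 CPM (means of 6 libraries), by 3.38 on the log2 scale (SE 0.16, edgeR adjusted p = 2.69e-34). Hspb6, a small heat shock protein, rose by 3.37 and Hsf5, a heat shock factor that spermatocytes need, by 3.3. The largest falls were those of the stress-inducible Hspa1b and Hspa1a (to 0.154 and 0.321 CPM) and of the mitochondrial chaperonin Hspd1, which fell by 4.36, from 373 ± 33.5 to 14.0 ± 3.47 CPM. From pachytene cells to elongating spermatids 24 of the 78 were higher and 47 lower, with a median of -1.55 beside -0.45 for all genes, of which 35.7% were higher and 44.3% lower. The largest rises were in J-domain genes, Dnajc5b (21.3 to 871 CPM), Dnajb7 (9.68 to 315 CPM) and Dnaja4 (to 396 CPM), and the largest falls in Dnajc3, Hspa14 and Mogs.

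The genes of the unfolded protein response list did not all follow Hspa5. Into early meiotic prophase 7 of 12 rose (Hspa5, Manf, Sdf2l1, Ddit3, Dnajb9, Creld2 and Atf6) and 3 fell (Eif2ak3, Xbp1 and Atf4), with a median of 0.64 beside -0.03 for all genes, of which 23.2% rose and 30.6% fell. Into pachytene cells 5 rose and 7 fell, with a median of -0.83 beside -0.1 for all genes, of which 31.8% rose and 32.3% fell, and Hspa5, Manf, Atf6, Dnajb9 and Creld2 were among those that fell. Manf, a secreted protein of stressed cells, went from 311 to 760 to 254 CPM over the 3 classes. In the chaperone and unfolded protein response lists, 4 genes outside the 10 held the ER stress element. Hsp90b1 (1560 ± 191 CPM), Dnajc3 (454 ± 29.8 CPM) and Pdia6 (789 ± 64.9 CPM) had their highest class mean in early meiotic prophase. Creld2 (399 ± 15.1 CPM) had it in later round spermatids. The element was in 37 promoters in all, and the levels of holders outside the lists were not examined. Of the 81 chaperone genes, 16 had their highest class mean in early meiotic prophase, and 3 of these 16 were found to hold the element. Only 68 of the 81 had a promoter to search, and a link between element and class was not tested. Hsp90b1, Dnajc3, Pdia6, Creld2 and Manf were named after their values were seen.

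A client list for this work held 10 genes of surface proteins taken to depend on calmegin, calsperin or the related Pdilt. Whether each of them is a direct folding client was not tested. Their highest class means lay between early meiotic prophase and the Fam71b class. Of the 10 listed, 2 had their highest class mean in early meiotic prophase (Tex101 and Ly6k), 1 in pachytene cells (Adam2), 2 at the meiotic divisions (Adam1b and Adam5), 1 in early round (Adam3) and 1 in later round spermatids (Adam1a), and 3 in the Fam71b class (Adam4, Adam6a and Adam6b). Adam2, a subunit of fertilin, stood at 429 ± 35.2 CPM in pachytene cells, where Clgn is near its highest level. Its partner Adam1a stood at 5.18 ± 1.73 CPM there and at 137 ± 18.0 CPM in later round spermatids. Adam1b, which like Adam1a encodes an alpha subunit, stood at 67.6 ± 6.12 CPM in pachytene cells and was highest at the meiotic divisions (178 ± 21.5 CPM). Adam3 held 703 to 929 CPM in early round spermatids, where Calr3 was still at 3.1 to 6.49 CPM. Pdilt, a relative of protein disulphide isomerase, was highest in later round spermatids (335 ± 24.0 CPM), and Adam4 and Adam6a, like Calr3, in the Fam71b class (66.6 ± 6.5 and 80.6 ± 10.7 CPM). The genes named in this paragraph from the list were chosen after their values were seen.

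The genes most like each of these genes other than Calr, by Pearson's r of log2(CPM + 1) over the 10 class means among 14786 genes, are given as a description. Hspa2 was nearest to Wfdc15a (0.996), Cox7b2 and Sephs2, and Clgn to Sephs2 (0.984), Wfdc15a and Sdccag8, so that Hspa2 and Clgn shared 2 of their 3. Hspa1l was nearest to 4921507P07Rik (0.995), Arl9 and Clmn, Dnajb8 to Spata3 (0.998), Cabs1 and Lelp1, and Calr3 to Iqcf6 (0.988), 1700027F06Rik and Gm50092. Hspa4l was nearest to Gm12764 (0.954), Cep57l1 and 6430573P05Rik, at lower values than the others. Gm12764 and 6430573P05Rik were low themselves, with highest class means of 2.5 and 3.55 in log2(CPM + 1). Among the widely expressed genes, Hspa8 was nearest to Ppib (0.995), Ccm2 and Usf2, Hspa5 to Pdia6 (0.974), Sec11a and Dazap2, and Canx to Chmp3 (0.997), Pcnx3 and Efcab14. Ppib and Pdia6 are themselves folding enzymes of the endoplasmic reticulum.

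The study asked whether a short high-fat diet alters the testis, and none of the 10 genes passed the test between the labelled diets. In all barcodes together (20727 genes tested), 0% of all genes passed, and 471 (2.27%) had an unadjusted p under 0.05, none of them among the 10. DESeq2 also called none. The log2 changes of the 10, labelled HFD minus LFD, ran from -0.11 (Hspa8) to 0.28 (Hspa2, SE 0.16, edgeR adjusted p = 0.986), with a median of 0.13 beside 0.02 for all genes. Hspa2 stood at 829, 1040 and 1220 CPM in the 3 libraries labelled HFD and at 837, 990 and 826 CPM in those labelled LFD. Hspa8 stood at 125, 80.3 and 82.2 against 107, 122 and 94.7 CPM. The diets overlapped for each of the 10 genes, while 6.68% of all genes did not overlap. In such sums, fewer cells of a kind and less RNA per cell cannot be told apart.

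Within classes the picture was the same. In each of the 10 classes tested, 0% of all genes and none of the 10 passed in edgeR (Calr3 was too low to be tested in macrophages), and DESeq2 called none of the 10 and 1 gene of any kind, in spermatogonia. Of the 10 genes, only Calr3 in pachytene cells and Hspa8 at the meiotic divisions had an unadjusted p under 0.05, beside 2.53% and 4.07% of all genes there. Calr3 in pachytene cells was at 2.95 to 9.8 CPM. Hspa8 at the meiotic divisions was at 31.1, 23.6 and 27.1 CPM in the libraries labelled HFD and 32.6, 46.7 and 35.1 CPM in those labelled LFD, which do not overlap, as for 9.81% of all genes in this class. The log2 change was -0.46 (SE 0.18, edgeR adjusted p = 0.76). The replicate 1 libraries alone stood at 31.1 against 32.6 CPM. In Sertoli cells, Hspa4l, Calr3 and Hspa1l did not overlap between the diets either, beside 5.88% of all genes, and their smallest unadjusted p was 0.0577 (Hspa1l, adjusted p = 1 in edgeR).

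The call rests on which libraries enter. Without HFD replicate 1, one of the 2 libraries without haemoglobin transcripts, 5 results passed: Hspa8 in pachytene cells (-0.37, edgeR adjusted p = 0.0469) and at the meiotic divisions (-0.54, adjusted p = 0.0472), Hspa5 at the meiotic divisions (0.34, adjusted p = 0.027), and Hspa2 (0.6, adjusted p = 0.00863) and Dnajb8 (-0.45, adjusted p = 0.0268) in the Fam71b class. In the same fits 5.56%, 12.8% and 10.4% of all genes passed in the 3 classes, and LFD replicate 1 was the only library left of its kind. No other library, when left out, gave a call among the 10. With the replicate 1 libraries as a term, and with the replicate number as a block, none of the 10 passed in any class.

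The fall or rise from pachytene cells to elongating spermatids did not differ between the diets for any of the 10 by the interaction of diet and class. Over all genes 0.0707% passed (9 of 12735). The interaction log2 values of the 10 ran from -0.5 to 0.67, and the smallest unadjusted p was 0.0855 (Calr3). The ratios of testis genes to counterparts gave the same account: over 55 comparisons of the diets by exact permutation tests, 4 reached 0.1, the smallest p that 3 against 3 libraries allow, and the smallest adjusted p was 0.859. The chaperone, client and unfolded protein response lists had no call in either direction in all barcodes or in any class, with medians between -0.27 and 0.24.

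**Figure D4:**
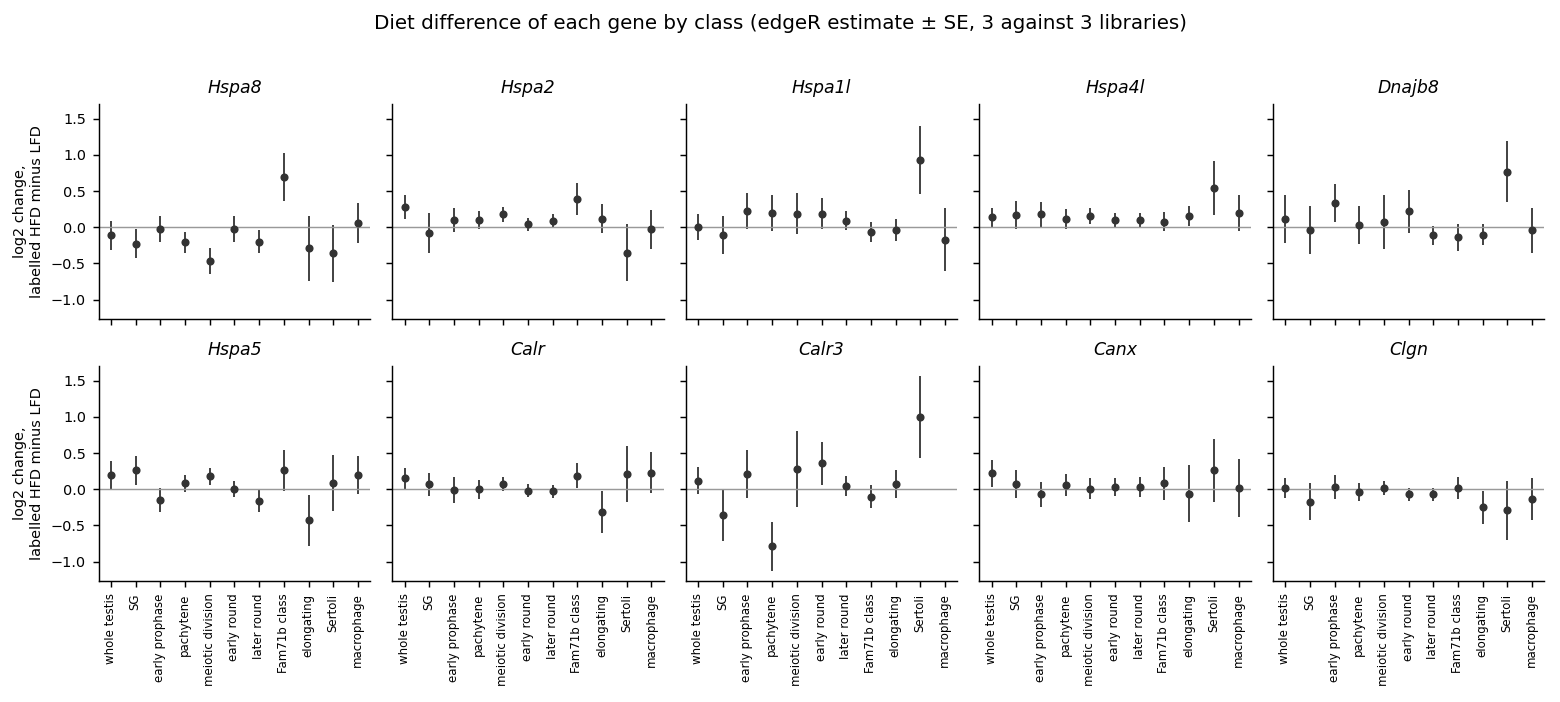
Log2 change of each gene between the labelled diets (HFD minus LFD) in the whole testis and in 10 classes. Points are edgeR estimates with TMM normalization and bars are ± 1 SE, from 3 against 3 libraries. Estimates spread most in Sertoli cells, from -0.36 to 1.0, and none passed the test.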

How the data were processed

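Single-cell 3′ RNA sequencing (10x Genomics) of whole testis gave 6 libraries. Per the labels and the study's methods, the authors mapped reads to mm10 with Cell Ranger 6.0.1 and deposited UMI counts per gene and barcode, not normalized. The labels name version 2 of the 3′ kit and the study's methods a later one. How Cell Ranger was set for strand is not given in the sources used here. The 10 genes and all lists were chosen with earlier results of these data known.

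Barcodes were kept with at least 200 genes, which removed 0. For each germ cell list, marker UMIs per 10000 were divided by their 95th percentile over barcodes of at least 5000 UMIs. Such a barcode entered the class with its highest ratio, if that was at least 0.7 with at least 5 marker UMIs, and elongating spermatids with a ratio of Tnp2 to Prm1 and Prm2 under 0.2 were set apart as late condensing. A somatic class needed 20 marker UMIs per 10000 and at least 5 marker UMIs. The 41 barcodes that passed for 2 somatic classes, or for a somatic and a germ cell class, were left out, and no doublet caller was run. Classes with at least 20 barcodes in every library were tested. Shares of barcodes with a UMI were computed as those expected after thinning to 1000 UMIs, over barcodes with at least that many.

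Counts were summed per library and class, since cells are not replicates, and tested with edgeR 4.0.16 (quasi-likelihood, TMM, default low-count filter) in R 4.3.3, with Benjamini-Hochberg adjustment over all genes tested, two-sided. DESeq2 1.42.0 was an alternative. Ratios had 0.5 added to each count and were tested by exact permutation (two-sided sign flips over 6 libraries, or 3 against 3 libraries). Other alternatives were median-ratio size factors in edgeR, no low-count filter, a stricter gate, removal as possible doublets of barcodes that passed for more than 1 germ cell class or were among the 5% deepest of their class and library, leaving out each library, and a replicate block or batch term. The fitting scripts were tested on simulated data.

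The genes named are the 10, Hspa4, up to 3 rising and 3 falling genes of the chaperone list in each of 2 contrasts (pachytene cells against spermatogonia, elongating spermatids against pachytene cells) with the largest changes going the same way in 6 of 6 libraries, and the 3 genes most like each of the 10, of which those for Calr are not reported here. Values of the other genes are given where the text says that they were chosen afterwards. Depth was 39196921 to 95845514 UMIs per library, with a median of 2155 to 3422 UMIs per barcode. Gene positions are from GENCODE for GRCm38 (mm10), matched by gene ID, and promoters from RefSeq for GRCm38.p6.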

Additional observations from a re-analysis of the deposited data

Results flagged for a closer look

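In 110 groups of 6 libraries (the 10 genes in all barcodes and in 10 classes), the highest or lowest library stood apart from the rest by Dixon's criterion in 2, where chance gives about 1 in 20. For Hspa2 in Sertoli cells, LFD replicate 2 held 835 CPM and the next library 502 CPM, a gap of 0.689 of the range. Both values lie below the mean of the unclassed shallow barcodes (882 CPM). For Hspa4l in all barcodes, HFD replicate 3 held 751 CPM and the next library 654 CPM, a gap of 0.757 of the range.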

How the results depend on the processing

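Over 312 comparisons of a result with an alternative, 292 kept the direction and the side of the threshold, or moved by less than the limit set for that kind of value, 14 moved and 6 changed sign. With median-ratio size factors, in edgeR and in DESeq2 alike, Hspa2 from the Fam71b class to elongating spermatids was 0.02, and from spermatogonia to pachytene cells Calr was -0.43 and Canx -0.16. The median gene moved by -0.87 over that span and by 0.55 or 0.56 from pachytene cells to elongating spermatids. Of 924 calls of the 10 genes checked between classes, 41 were lost.

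With a library left out, the number of the 10 genes called from the meiotic divisions to early round spermatids ran from 3 to 6, against 5 with all. The number called between the diets ran from 0 to 1 in pachytene cells, from 0 to 2 at the meiotic divisions and from 0 to 2 in the Fam71b class, each time through leaving out HFD replicate 1. The steps of the ratios past the threshold went from 26 to 0 whichever library was left out, because 5 libraries do not allow a small enough p in the exact test. Without possible doublets, Hspa5 in early meiotic prophase was 3510 CPM and Calr3 in the Fam71b class 407 CPM; the cause was not tested.

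Deviations from the diet means correlated at 0.487, 0.0311 and 0.262 for libraries of the same number (1, 2 and 3). Between libraries of different numbers the values ran from -0.406 to 0.3. The value of the replicate 1 libraries was the highest, and whether the numbers mark pairs was not tested. With the replicate block, 0 of the 10 genes passed between the diets in all barcodes and in each class, while 24 genes of any kind passed in all barcodes and 29 in pachytene cells, against 0 in both without it. Means below 1 UMI per barcode limit the precision for Hspa8 in all spermatid classes, for Hspa1l and Calr3 up to early round spermatids, for Canx and Hspa5 in the Fam71b class and elongating spermatids, and for Clgn and Calr in elongating spermatids. In late condensing spermatids the same holds for Hspa5, Canx, Clgn, Calr3 and Calr.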
